A study of Mus musculus with 12 samples.

Results

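The semaphorins, plexins and neuropilins are the 31 genes, 20 semaphorins, 9 plexins and 2 neuropilins, whose array probe names follow the symbols of these families (Sema3 to Sema7, Plxna to Plxnd, Nrp1 and Nrp2). They had 41 probes, 21 genes with 1 probe and 10 genes with 2, among the 25539 genes tested in the cultures, and all 31 were among those tested. Their signals were measured on 8 single-colour Agilent arrays of neurons derived from male mouse embryonic stem cells of 129/Ola background, after 16 days of differentiation, 2 arrays for each of 4 culture groups. Every culture group received 2.5 µM 53AH, an inhibitor of WNT signalling, and 0.25 µM LDN193189, an inhibitor of BMP receptors, from day 0. In CHIR_8-16, called hippocampal by the labels, the inhibitors ended at day 8 and 3 µM CHIR, a WNT agonist that inhibits GSK3, was given until day 16. In CHIR_11-16 the agonist was given after day 11 until day 16, with no dose stated. WiBi_0-16 received the inhibitors until day 16, and WiBi_0-11, called isocortical, until day 11, both without agonist. Another 4 arrays, 1 per tissue, held midbrain, ventral telencephalon, hippocampus and cortex of Sv129s6 embryos of both sexes at embryonic day 15 (E15). RNA from 3 sets of experiments was pooled for each sample.

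Semaphorins are secreted or membrane-bound cues that repel or attract growing axons, and plexins are their main receptors, which turn off small GTPases of the Ras family inside the cell. Most secreted class 3 semaphorins bind a neuropilin that is paired with an A-type plexin, whereas Sema3e can bind Plxnd1 without a neuropilin and Sema7a binds Plxnc1. In the developing cortex and hippocampus these proteins guide axons, sort neurons into layers and, in the case of Nrp2, Plxna2, Plxna4 and Sema6a, shape hippocampal fibre tracts.

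The probes behind the genes on which the culture results turn are shown first, each by its first 30 of 60 bases, with the mm9 position of the whole probe, because 2 probes for Plxnc1 and 2 for Nrp2 lie at different places in their transcripts. The brighter Plxnc1 probe lies at chr10:94253879-94253938 and the other at chr10:94257387-94257446, both on the minus strand. The Sema3e probe lies at chr5:14256598-14256656 and the Sema3d probe at chr5:12586981-12587040, both on the plus strand. The Nrp2 probes lie on the plus strand, for transcript variant 1 at chr1:62865129-62865188 and for variant 5 at chr1:62843298-62843357. Whether these positions are in coding or untranslated exons was not analysed here.
Plxnc1 brighter probe: ggatcccattagccaaatgcacagaatgtc
Plxnc1 other probe: atgccaaggatataccaacctacaaagagg
Sema3e probe: cctccacccaatactgcacaaagtctgtat
Sema3d probe: ggtacctatctcaagggcataacattatct
Nrp2 variant 1 probe: tgagccagatcacgggaactcgagagcttt
Nrp2 variant 5 probe: ggtttctgttggctgtcattgtcatctcca

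The promoters of Plxnc1, Sema3e and Sema3d are shown because these 3 members, chosen after their values were seen, had the smallest p-values for the WNT agonist, whose pathway acts through TCF and LEF factors that bind the core CTTTGA. The sequences are from RefSeq (GRCm38.p6) and run from 250 bases before to 50 bases after the transcript start. CTTTGA, searched on both strands (as TCAAAG on the other), was in 16.0% of 32851 such windows. RefSeq windows were found for 26 of the 31 members, and 3 of their 37 windows (8.1%), at Nrp2, Sema3e and Sema6d, held the motif. Plxna1, Plxna4, Sema3b, Sema3f and Sema6a were not matched. In the sequences below the capitals mark the motif, which is in the Sema3e window and not in those of Plxnc1 or Sema3d. The Plxnc1 window is chr10:94944796-94945095 on the minus strand, the Sema3e window chr5:14025026-14025325 and the Sema3d window chr5:12382916-12383215, both on the plus strand.
Plxnc1 promoter: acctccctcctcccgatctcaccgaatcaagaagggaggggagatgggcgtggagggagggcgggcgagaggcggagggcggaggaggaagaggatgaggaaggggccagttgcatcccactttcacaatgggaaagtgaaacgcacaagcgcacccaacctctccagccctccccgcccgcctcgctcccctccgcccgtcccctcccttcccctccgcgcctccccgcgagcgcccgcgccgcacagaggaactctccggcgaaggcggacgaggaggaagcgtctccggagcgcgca
Sema3e promoter: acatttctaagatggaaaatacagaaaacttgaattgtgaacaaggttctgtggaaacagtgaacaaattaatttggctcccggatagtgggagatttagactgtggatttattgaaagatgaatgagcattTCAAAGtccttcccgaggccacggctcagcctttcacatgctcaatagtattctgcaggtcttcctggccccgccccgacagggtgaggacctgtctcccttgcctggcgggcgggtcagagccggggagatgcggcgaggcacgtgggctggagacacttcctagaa
Sema3d promoter: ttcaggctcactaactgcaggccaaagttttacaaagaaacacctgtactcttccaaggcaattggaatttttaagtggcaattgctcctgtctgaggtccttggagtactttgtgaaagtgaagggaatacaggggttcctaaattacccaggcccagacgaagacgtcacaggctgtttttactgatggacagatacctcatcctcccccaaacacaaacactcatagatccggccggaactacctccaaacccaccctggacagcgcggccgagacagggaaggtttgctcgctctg

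All levels are log2 processed signals relative to the 75th percentile of the array, so that 0 is that percentile, and levels of different probes are not comparable. The share of spots well above background ran from 59.06% to 71.18% per array. Slide 2 held replicate 1 and slide 3 replicate 2 of the 4 culture groups, and 34.4% of all genes, among them 9 members, differed between these slides (limma, adjusted p under 0.05). Plxna1, a receptor subunit, was 1.03 higher on slide 3 than on slide 2, and Sema3g, a class 3 ligand of blood vessels, 0.83 higher. Each comparison was therefore also fitted with slide as a block, and the largest differences are given within each slide. With 2 arrays per culture group the number of arrays limits the precision, and each p-value reflects no more than the spread among these samples, which could be technical. The culture arrays carried neuronal RNA (Tubb3, Stmn2, Rbfox3 and the other 5 neuronal markers were well above background on all 8). They also carried RNA of radial glia and astrocyte markers, all 9 of which were well above background on all 8 arrays. The culture signals are therefore not those of neurons alone. Neurod6, a gene of pallial projection neurons, was at -1.16 to -0.07 in cultures and 3.47 to 5.37 in the 3 telencephalic tissues.

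Across the 4 agonist cultures (CHIR_8-16 and CHIR_11-16) and the 4 inhibitor-only cultures (WiBi_0-16 and WiBi_0-11), Plxnc1, the receptor of Sema7a, was lower with the agonist, Sema3e, the ligand of Plxnd1, and Plxnd1 itself had lower signals, and Sema3d, a secreted class 3 ligand, had a higher signal. Of these, Plxnc1 passed the test in the fit with slide as a block, and not in the fit without it. The inhibitors ended at day 8 or 11 in the agonist cultures and at day 11 or 16 in the inhibitor-only cultures. Agonist and length of inhibitor exposure therefore cannot be told apart here. Each side was fitted with 1 mean, so the spread also holds the difference between its 2 culture groups. In bulk RNA, fewer cells of a type and less RNA per cell cannot be told apart.

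Plxnc1 was at 2.11 and 2.07 in CHIR_8-16, 2.58 and 2.47 in CHIR_11-16, 3.00 and 3.02 in WiBi_0-16, and 3.13 and 3.09 in WiBi_0-11. The 4 agonist arrays lay below the 4 inhibitor-only arrays without overlap, with CHIR_8-16 the lowest group. The difference between agonist and inhibitor-only cultures was -0.75 on the log2 scale (1.69-fold lower), at -0.72 on slide 2 and -0.79 on slide 3. Its SE was 0.15 without and 0.14 with the slide block, and limma's adjusted p was 0.0859 without and 0.0455 with it, so that Plxnc1 fell in the blocked fit and missed the threshold in the other. It also passed without the block when limma's prior variance followed signal level (a trended prior, adjusted p = 0.0368). The blocked call was lost when any 1 of the 8 arrays was left out, with limma's adjusted p at 0.0847 to 0.131. It was also lost under median scaling (adjusted p = 0.0872 in limma) and without a filter on dim probes (0.105). The other Plxnc1 probe gave -1.82 to -1.39 in agonist and -1.31 to -0.95 in inhibitor-only cultures, again without overlap.

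Among the ligands, Sema3e was at -3.33 and -2.16 in CHIR_8-16, -1.75 and -1.68 in CHIR_11-16, -0.80 and -0.87 in WiBi_0-16, and -0.84 and -1.04 in WiBi_0-11. Every agonist array was below every inhibitor-only array, and the 2 CHIR_8-16 arrays differed from each other by more than any other replicate pair. The agonist difference of Sema3e was -1.34 (SE 0.35; limma, adjusted p = 0.123, and 0.0737 with the block), at -1.72 on slide 2 and -0.96 on slide 3, and did not pass in either fit. Sema3d was at -3.07 and -3.91 in CHIR_8-16, -4.02 and -4.45 in CHIR_11-16, -6.15 and -4.98 in WiBi_0-16, and -5.24 and -5.17 in WiBi_0-11. The agonist arrays were all higher, but 2 of the 4 inhibitor-only arrays, WiBi_0-16 replicate 1 and WiBi_0-11 replicate 2, were not well above background for it. Its difference of 1.53, at 2.15 on slide 2 and 0.90 on slide 3 (SE 0.35; limma, adjusted p = 0.103, and 0.0613 with the block) did not pass, and it was 0.49 after normexp background correction with quantile normalization. Sema3a, which repels cortical axons through Nrp1, was at 1.73 and -0.50 in CHIR_8-16, 2.26 and 1.57 in CHIR_11-16, 2.73 and 2.42 in WiBi_0-16, and 2.71 and 2.05 in WiBi_0-11. Its groups overlapped, replicate 2 of CHIR_8-16 was the lowest array by a wide margin, and the agonist difference of -1.21, at -0.72 on slide 2 and -1.70 on slide 3 (SE 0.55; limma, adjusted p = 0.35, and 0.163 with the block) did not pass. The other Sema3a probe gave a smaller difference of -0.497. It also overlapped, at -3.61 to -1.67 in agonist and -2.23 to -1.44 in inhibitor-only cultures.

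The membrane-bound ligands Sema5b and Sema7a had the largest positive differences after Sema3d. Sema5b, which can repel axons, was at 2.32 and 2.21 in CHIR_8-16, 2.28 and 2.06 in CHIR_11-16, 1.48 and 1.65 in WiBi_0-16, and 2.19 and 1.78 in WiBi_0-11, a difference of 0.44. Sema7a, the ligand of Plxnc1, was at 2.06 and 2.02 in CHIR_8-16, 1.53 and 1.78 in CHIR_11-16, 1.14 and 1.35 in WiBi_0-16, and 1.71 and 1.51 in WiBi_0-11, a difference of 0.42. Both genes overlapped between agonist and inhibitor-only arrays, and WiBi_0-16 was the lowest group for both. The other Sema5b probe narrowly did not overlap, at 1.061 to 1.431 in agonist and 0.731 to 1.058 in inhibitor-only cultures. Limma's adjusted p was 0.254 and 0.155 with the block for Sema5b, and 0.302 and 0.208 with the block for Sema7a.

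Of the receptors, Plxnd1, which binds Sema3e, was at 1.72 and 1.85 in CHIR_8-16, 1.82 and 1.84 in CHIR_11-16, 2.15 and 1.95 in WiBi_0-16, and 2.42 and 2.20 in WiBi_0-11. All agonist arrays lay below all inhibitor-only arrays, and the difference of -0.37 (SE 0.13; limma, adjusted p = 0.212, and 0.124 with the block) did not pass. The other Plxnd1 probe overlapped, at -1.52 to -1.20 in agonist and -1.33 to -0.96 in inhibitor-only cultures. The neuropilins and the plexins that pair with them had small differences. Nrp1 differed by -0.03, Nrp2 by -0.18, Plxna2 by 0.17 and Plxna4 by -0.02, and the ligands Sema3f and Sema6a by 0.23 and 0.09. Nrp2 was at 5.45 to 5.70 in agonist cultures and 5.66 to 5.80 in inhibitor-only cultures, and its variant 5 probe at 1.13 to 1.77 and 1.40 to 1.80. The plot of 12 members by culture array shows these levels.

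**Figure D1:**
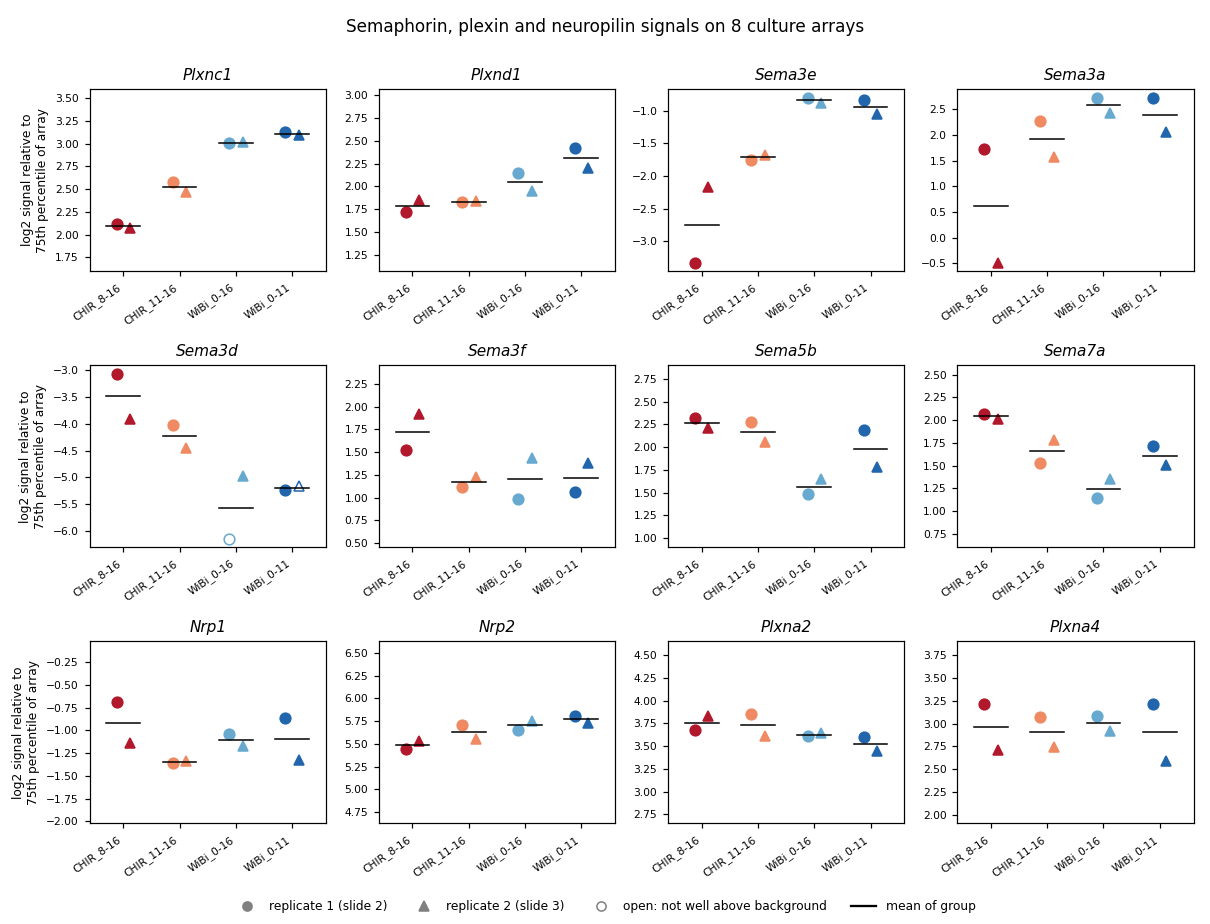
Log2 signal relative to the 75th percentile of the array (vertical axis, each panel on its own scale of at least 2 units) for 12 members on the 8 culture arrays, by group; circles are replicate 1 (slide 2), triangles replicate 2 (slide 3), open symbols are not well above background and lines are group means. Plxnc1, Plxnd1 and Sema3e lie lower and Sema3d higher on all 4 agonist arrays than on all 4 inhibitor-only arrays, while Nrp1, Nrp2, Plxna2 and Plxna4 overlap.

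Over the 31 members, limma called 0 without the block (0.00783% of all genes were called), with 6 at an unadjusted p under 0.05 (15.3% of all genes), and 1 with the block, Plxnc1, which was lower (3.4% of all genes were called, 1.43% as lower). With the block 9 members had an unadjusted p under 0.05 (22.5% of all genes). Agonist and inhibitor-only arrays did not overlap for 4 members, Plxnc1, Plxnd1, Sema3d and Sema3e (12.9%), against 12.3% of all genes, so the share is near that of all genes. The median difference was -0.02 for the members and 0.00 for all genes. The members not described above differed by -0.31 (Sema5a) to 0.25 (Plxnb1). The plexins of this group were Plxna1, Plxna3, Plxnb1, Plxnb2 and Plxnb3, and the class 3 ligands Sema3b, Sema3c and Sema3g. The other ligands were Sema4a, Sema4b, Sema4c, Sema4d, Sema4f, Sema4g, Sema5a, Sema6b, Sema6c and Sema6d. Levels of 21 members stayed within 1 log2 unit over the 8 arrays, and those of 10 ranged over more. The share of all genes was not computed, so these counts only describe the members. The 10 include Sema3d and Plxnb3, not well above background on some arrays, and Plxna1, which differed between the slides. In the plot of all 31 differences, the values within slide 2 and slide 3 lie on opposite sides of 0 for Plxnb3, Sema3g and Sema4a among others.

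**Figure D2:**
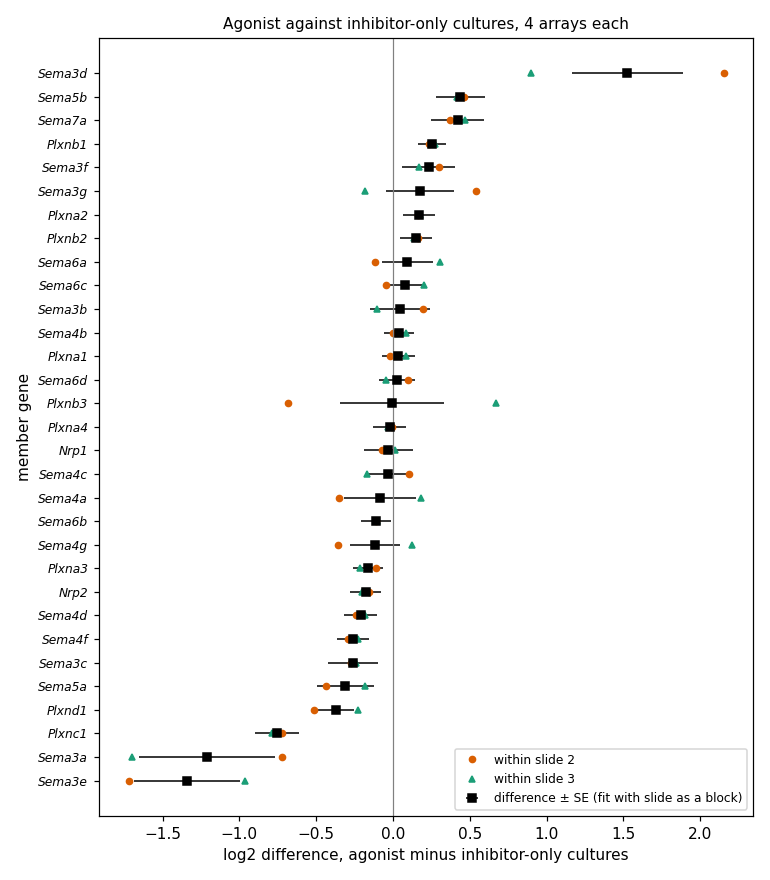
Log2 difference (horizontal axis) between the 4 agonist and the 4 inhibitor-only culture arrays for each of the 31 members; squares with bars are the difference ± SE of the fit with slide as a block, and circles and triangles are the differences within slide 2 and slide 3. Sema3e, Sema3a and Plxnc1 have the lowest values (-1.34, -1.21 and -0.75) and Sema3d the highest (1.53).

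Some marker lists differed between the culture groups. In units of the 75th percentile, the summed midbrain level was 1.69 to 7.002 in agonist and 0.95 to 1.67 in inhibitor-only cultures, without overlap, with 5 of 6 markers well above background on every culture array and En1 on none. The summed neuronal level was 268.6 to 304.3 in agonist and 310.7 to 328.5 in inhibitor-only cultures, also without overlap. The mean log2 level overlapped for both lists. For midbrain it was -3.46 to -1.52 in agonist and -3.94 to -2.75 in inhibitor-only cultures, and for neurons 4.66 to 4.84 and 4.75 to 4.88. The GABAergic list was low in CHIR_8-16 and not in CHIR_11-16. The summed GABAergic lineage level was 7.16 and 4.60 in CHIR_8-16, 24.1 and 41.1 in CHIR_11-16, 18.9 and 38.8 in WiBi_0-16, and 20.7 and 41.6 in WiBi_0-11, with all 7 markers well above background on each array. The summed mesenchyme level was 2.04 to 7.36 in agonist and 5.55 to 13.2 in inhibitor-only cultures, with 6 of 7 markers well above background in CHIR_8-16, where Ibsp was not, and 7 of 7 in the other groups. The summed Cajal-Retzius level was 6.70 to 13.2 in agonist and 11.3 to 27.6 in inhibitor-only cultures, all 4 markers being well above background. Of 8 oligodendrocyte lineage markers Gpr17 was not well above background in CHIR_8-16, and the mean log2 level of the list was -1.92 to -0.44 in agonist and 0.00 to 0.76 in inhibitor-only cultures, while its summed level overlapped, at 41.3 to 216.5 and 61.1 to 89.0. Other summed levels overlapped. They were 181.4 to 345.4 in agonist and 194 to 356 in inhibitor-only cultures for radial glia and astrocytes. The hippocampus list gave 25.7 to 41.3 and 28.0 to 31.0, and the forebrain and pallium list 61.4 to 72.0 and 71.3 to 84.8. The part of the cells of these lists in the differences of Plxnc1, Sema3e, Sema3d and Sema3a was not tested.

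Set against WiBi_0-11 alone, CHIR_8-16 shows how the hippocampal protocol differed from the isocortical one. Plxnc1 was 2.03-fold lower, at -1.02 (SE 0.15; limma, adjusted p = 0.202, and 0.0537 with the block), with -1.01 on slide 2 and -1.02 on slide 3. It was the member nearest the threshold, and it passed with the block under median scaling (limma, adjusted p = 0.0399), where the median over all genes was -0.07 and not 0.06. Sema3e differed by -1.81 (limma, adjusted p = 0.273, and 0.0974 with the block) and Sema3a by -1.76 (0.527 and 0.135). The slides gave -2.49 and -1.12 for Sema3e and -0.98 and -2.54 for Sema3a, so that each leans on a different array of CHIR_8-16. Without CHIR_8-16 replicate 1 the blocked fit called Sema3a, and without replicate 2 it called Sema3e. Each of these fits keeps the lower array of the called gene as the only CHIR_8-16 array, which is assumed to vary like the other groups. The largest positive differences were 1.72 for Sema3d, 0.51 for Sema3f, a repellent that acts through Nrp2, and 0.43 for Sema7a. The other members followed throughout differed by 0.18 (Nrp1), -0.28 (Nrp2), 0.23 (Plxna2), 0.06 (Plxna4), -0.52 (Plxnd1), 0.28 (Sema5b) and 0.33 (Sema6a). Limma called 0 members in both fits, against 0.0117% of all genes without and 0.301% with the block, and the unadjusted p was under 0.05 for 4 members without the block (9.59% of all genes) and 9 with it (22.1%). The arrays did not overlap for 12 members (38.7%), against 35.6% of all genes.

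CHIR_11-16, which had the same inhibitor exposure as WiBi_0-11, differed from it by a median size of 0.18 over the members. That of CHIR_8-16 was 0.26, and over all genes the 2 values were 0.20 and 0.26. Some members differed by more than in CHIR_8-16, among them Sema3c (-0.45, against -0.19) and Sema4a (-0.43, against 0.24). This comparison and the previous one share the WiBi_0-11 arrays, and the values stand side by side only as a description. Plxnc1 differed by -0.59 (-0.55 on slide 2 and -0.63 on slide 3), Sema3e by -0.77 (-0.91 and -0.64), Plxnd1 by -0.48 (-0.59 and -0.36) and Sema3a by -0.46 (-0.45 and -0.48). Among members with one sign on both slides the largest positive values were 0.97 for Sema3d (1.22 and 0.72), 0.48 for Sema3g (0.92 and 0.05) and 0.26 for Plxnb1, a receptor of Sema4d (0.18 and 0.34). Plxnb3 differed by 0.49, at -0.41 on slide 2 and 1.39 on slide 3. Nrp1 differed by -0.25, Nrp2 by -0.14, Plxna2 by 0.21, Plxna4 by 0.00, Sema3f by -0.05, Sema5b by 0.18 and Sema6a by -0.07. Limma called 0 members in both fits (0% of all genes without and 0.0157% with the block), the smallest blocked adjusted p being 0.286 for Plxnc1, and 2 members, Plxnc1 and Plxnd1, had an unadjusted p under 0.05 in either fit (4.73% of all genes without and 12.4% with the block). The arrays did not overlap for 9 members (29%), against 34.8% of all genes.

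Starting the agonist at day 8 and not at day 11 was compared between CHIR_8-16 and CHIR_11-16, which also differ in when the inhibitors ended and perhaps in dose. The lowest differences were -1.30 for Sema3a (-0.53 on slide 2 and -2.06 on slide 3), -1.03 for Sema3e (-1.58 and -0.49), -0.63 for Plxnb3 (-0.55 and -0.72), -0.59 for Sema3g (-0.69 and -0.49) and -0.43 for Plxnc1 (-0.46 and -0.40). The highest were 0.75 for Sema3d (0.96 and 0.54), 0.67 for Sema4a, a membrane-bound ligand (0.50 and 0.84), and 0.56 for Sema3f (0.41 and 0.70), the last at 1.53 and 1.92 in CHIR_8-16 and 1.11 and 1.23 in CHIR_11-16. Plxnb3 was not well above background on CHIR_8-16 replicate 1. The differences of Nrp1 (0.43), Nrp2 (-0.14), Plxna2 (0.02), Plxna4 (0.06), Plxnd1 (-0.05), Sema5b (0.09) and Sema6a (0.40) were smaller. Limma called 0 members in both fits (0% and 0.00783% of all genes), with 2 members at an unadjusted p under 0.05 without the block (3.82% of all genes) and 5 with it (11.7%), and a smallest blocked adjusted p of 0.3 for Sema3f. The arrays did not overlap for 13 members (41.9%), against 26.1% of all genes.

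The 5 added days of inhibitors in WiBi_0-16 relative to WiBi_0-11 gave the smallest median size of difference of the 5 comparisons, 0.10 over the members, against 0.19 over all genes. Sema3b, a class 3 ligand, differed by -0.56, at -2.65 and -2.77 in WiBi_0-16 and -2.40 and -1.90 in WiBi_0-11. Within slide 2 and slide 3 Sema3b gave -0.25 and -0.87. Sema5b differed by -0.42 (-0.70 and -0.13) and Sema7a by -0.36 (-0.57 and -0.15). The largest positive values were 0.36 for Plxnb3 (0.00 and 0.71), 0.20 for Plxna1 (0.20 and 0.20) and 0.19 for Sema3a (0.01 and 0.38). Nrp1 (-0.01), Nrp2 (-0.07), Plxna2 (0.10), Plxna4 (0.10), Plxnd1 (-0.26), Sema3e (0.11), Sema3f (-0.01) and Sema6a (0.07) also differed by little. Limma called 0 members in both fits (0% and 0.0117% of all genes), and 1 member, Sema3b, had an unadjusted p under 0.05 in either fit (2.61% and 10.8% of all genes). The arrays did not overlap for 8 members (25.8%), against 28.3% of all genes.

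Of the co-receptors, partners and effectors of plexins, 43 of 44 listed genes were tested. With the agonist 2 rose and 0 fell in the blocked fit, in which 3.4% of all genes were called, 1.98% as higher. Cntn2, an axonal adhesion molecule, rose by 2.27 (limma, adjusted p = 0.0383 with the block, 0.0771 without) and Rnd2, a small GTPase of migrating neurons, by 0.57 (0.0479 and 0.0964). Limma called 0 list members in the same comparison without the block, where 7 had an unadjusted p under 0.05 (15.3% of all genes), against 13 with the block (22.5%). In the other 4 comparisons limma called 0 in either fit. There 0 to 7 list members had an unadjusted p under 0.05 without the block (2.61% to 9.59% of all genes) and 4 to 10 with it (10.8% to 22.1%). Values for those that did not pass were -0.90 for Rnd1, which binds plexins, -0.72 for Chl1 and -0.68 for L1cam, both adhesion molecules that partner neuropilins, and 0.74 for Mical1, an effector of A-type plexins. The list's median was -0.07, against 0.00 over all genes. Between CHIR_8-16 and WiBi_0-11 the largest values each way were -1.49 (Rnd1) and -0.97 (Chl1), and 2.65 (Cntn2) and 0.56 (Ptk7). Between CHIR_11-16 and WiBi_0-11 they were -0.78 (Rnd1) and -0.61 (Fes), and 1.73 (Cntn2) and 0.54 (Rnd2). Between CHIR_8-16 and CHIR_11-16 they were -0.76 (Chl1) and -0.71 (Rnd1), and 0.92 (Cntn2) and 0.50 (Fes), and between WiBi_0-16 and WiBi_0-11 they were -0.88 (Mical1) and -0.47 (Rnd1), and 0.52 (L1cam) and 0.44 (Mical2).

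In the E15 tissues, where 1 array per tissue allows no test, 17 of the 31 members ranged over at least 1 log2 unit between regions. The share of all genes with such a range was not computed, so the count only describes the members. The 17 include Sema3d, which was well above background in midbrain only. En1 was well above background in midbrain only, Wnt8b was at 1.04 in hippocampus and not well above background in cortex, and Dlx2 was at 3.86 in ventral telencephalon and 1.68 to 2.29 in hippocampus and cortex. The ventral telencephalon array also carried Tbr1, a pallial gene, at 5.50. Of the other hippocampus markers Prox1, Zbtb20 and Lhx2 were highest in hippocampus, whereas Lmo3 was lowest there (1.19, against 2.02 in cortex).

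Between hippocampus and cortex 6 of 30 members with a signal on either array differed at least 2-fold, against 11.8% of all genes. Nrp2, the receptor of Sema3f, was at 6.06 in hippocampus and 3.70 in cortex (2.37 higher), and its variant 5 probe at 1.88 and -0.80. Nrp1 was at 2.34 in hippocampus and 1.03 in cortex, and Sema3c, a ligand of both neuropilins, at 3.59 and 1.84. Lower in hippocampus were Sema3a, at -1.19 against 0.63 in cortex, Plxna4, a receptor of Sema3a and Sema6a, at 3.05 against 4.84, and Sema3f, at 1.54 against 3.08. The next values were 0.94 for Sema3b and -0.72 for Sema7a, under 2-fold. The summed mesenchyme level was 19.7 in hippocampus and 4.07 in cortex, and the Cajal-Retzius level 4.62 and 1.79, and their part in these differences was not tested.

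Between ventral telencephalon and the mean of hippocampus and cortex 5 of 30 members differed at least 2-fold, against 13.5% of all genes. Plxnc1 was at 3.04 in ventral telencephalon, against 1.51 in hippocampus and 1.16 in cortex, and Sema3e at -1.86, against -3.38 and -3.34. Sema3a (1.42, against -1.19 and 0.63) and Sema4a (2.69, against 1.28 and 1.79) were also higher, and Nrp1 was lower (-0.96, against 2.34 and 1.03). The other Sema3a probe was at -2.17 in ventral telencephalon, close to its -2.24 in cortex, and at -3.53 in hippocampus. The next values were 0.95 for Plxnd1, -0.92 for Sema4d, -0.89 for Sema3c and -0.71 for Plxna1. In the cultures Plxnc1, Sema3e and Sema3a had their lowest group means in CHIR_8-16, whereas Sema4a had its highest there. The GABAergic lineage level was 94.2 in ventral telencephalon and 21.6 and 23.0 in hippocampus and cortex. In the cultures it was lowest in CHIR_8-16, and its part in any of these values was not tested.

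Midbrain differed at least 2-fold from the mean of the 3 telencephalic tissues for 12 of 31 members by measured signal, against 17.2% of all genes. Plxna2, a receptor of class 6 semaphorins, was at 2.79 in midbrain and 4.56 to 5.28 in telencephalon, and Sema3c at 0.36 and 1.83 to 3.59. Plxnd1 (-1.34), Sema4d, a ligand of Plxnb1 (-1.08), Plxna4 (-1.03) and Nrp1 (-1.02) were the other members lower by at least 2-fold. Higher were Sema3b (1.54), Plxnb3 (1.36), Sema6a, the ligand of Plxna2 and Plxna4 (1.27) and Plxnc1 (1.11), and Sema4a was at 2.93 in midbrain and 1.28 to 2.69 in telencephalon. The last of the 12 was Sema3d, well above background in midbrain alone and at least 1.13-fold higher than the mean of the 3 other tissues, each taken at no less than its lowest signal well above background. That lowest signal was -5.11 in ventral telencephalon, above the -5.49 of Sema3d in midbrain, so no bound holds against this tissue by itself. For Nrp1, Plxnc1 and the brighter Plxna4 probe, the midbrain level lay within the range of the 3 telencephalic tissues despite these differences from their mean. Nrp2 was at 4.00 in midbrain, also within the 3.70 to 6.06 of the telencephalon. The other Plxna4 probe lay below that range, at -5.82 in midbrain and -4.43 to -3.43 in the telencephalic tissues. The summed mesenchyme level was 46.4 in midbrain and 2.98 to 19.7 in the telencephalic tissues. The map of the members across the tissues shows that 8 members were highest in midbrain, 5 in ventral telencephalon, 8 in hippocampus and 10 in cortex. The shares of all genes were not computed, so these counts only describe the members. Some ranks rest on small gaps, as for Plxnc1 (3.04 in ventral telencephalon, 3.02 in midbrain) and Sema6c (a range of 0.197).

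**Figure D3:**
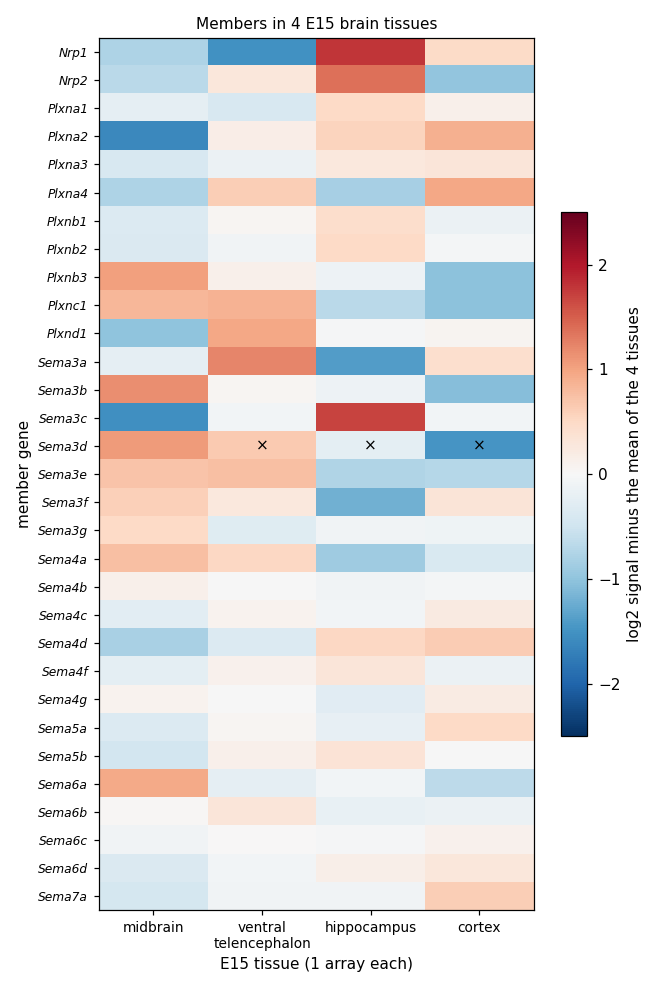
Log2 signal of each of the 31 members in 4 E15 tissues (columns, 1 array each) minus the mean of the 4 tissues (colour scale, red above and blue below); a cross marks a probe not well above background. Nrp1, Nrp2 and Sema3c stand out in hippocampus and Sema3a in ventral telencephalon, and Plxna2 and Sema3c are lowest in midbrain. Plxnc1 is high in both ventral telencephalon (3.04) and midbrain (3.02). The other Sema3a probe, not shown, was at -2.17 in ventral telencephalon and -2.24 in cortex.

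Set beside the 3 telencephalic tissues, the cultures were lower on all 8 arrays than on all 3 tissues for 8 of 31 members (25.8%), against 10.1% of all genes, and higher for 1 (3.23%), Sema6a, against 18.5% of all genes. The tissues lay on a slide of their own, so slide and source cannot be told apart and no test was made. The median difference was -0.25 over the members and 0.16 over all genes. The ligands among the 8 were Sema3c (-0.56 to 0.59 in cultures, 1.83 to 3.59 in tissues), Sema3g (-4.96 to -3.68, and -1.66 to -1.43), Sema4d (-1.53 to -0.70, and -0.10 to 0.88), Sema6c (0.97 to 1.56, and 1.68 to 1.81) and Sema7a (1.14 to 2.06, and 3.47 to 4.19). The result for Sema3g holds for its brighter probe only. Its other probe overlapped, at -5.572 to -4.135 in cultures and -4.854 to -4.147 in tissues, and was not well above background in WiBi_0-11. The receptors were Plxna2 (3.45 to 3.85 in cultures, 4.56 to 5.28 in tissues), Plxnb2, a receptor of Sema4c (3.69 to 4.37, and 4.50 to 5.10), and Plxnd1 (1.72 to 2.42, and 2.53 to 3.53). Sema6a was at 1.53 to 2.21 in cultures and 0.94 to 1.52 in tissues. Of 8 endothelial and microglial markers 4 to 6 were well above background per culture array and all 8 in each tissue, with a summed level of 6.78 to 12.4 in cultures and 13.7 to 16.1 in the telencephalic tissues. The vessel genes differed among themselves. Cdh5 was at -7.92 to -4.73 in cultures and -0.86 to -0.43 in tissues, and was well above background on 1 culture array, and Tek on none. Kdr (1.87 to 3.102 in cultures, 2.63 to 3.15 in tissues) and Pecam1 (-2.78 to -2.25, and -2.38 to -2.15) overlapped between cultures and tissues, and the part of vessels in the levels of Sema3g and Plxnd1 was not tested. The plot of cultures beside telencephalon gives all 31 members.

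**Figure D4:**
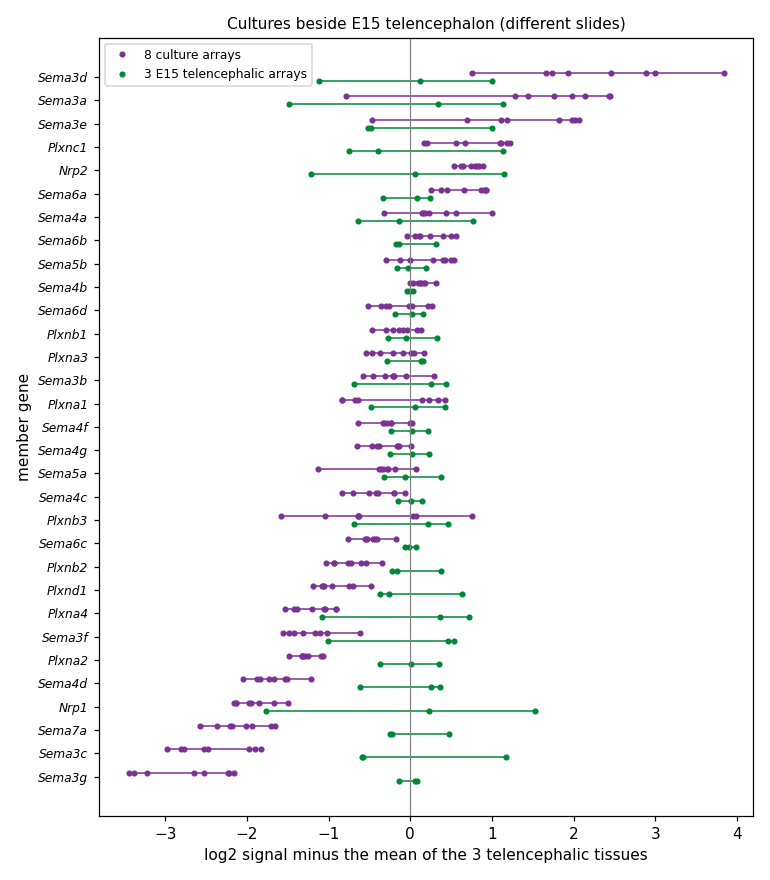
Log2 signal of each of the 31 members minus the mean of the 3 telencephalic tissues (horizontal axis), with purple points for the 8 culture arrays and green points for the 3 tissues, joined by their range. Sema3g, Sema3c and Sema7a lie lowest in cultures, at -2.73, -2.41 and -2.08 on average, and Sema6a lies above all 3 tissues. The other Sema3g probe, not plotted, overlaps between cultures and tissues.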

How the data were processed

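Per the labels, Cy3-labelled RNA was hybridised to single-colour Agilent mouse arrays. Per the file headers, Agilent Feature Extraction 10.7.3.1 made the deposited intensity values, on probes placed on mm9, while the submitters' processing notes name Agilent Feature Extraction 9.1 and limma. The series table deposited by the authors holds log2 values on a common distribution (column medians 6.19 to 6.24), which correlated at 0.989 to 0.994 with the same array and served only as an alternative. How the background was treated in it, its centring and its exact scale are not given in the sources used here.

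Values are log2 processed signals minus the 75th percentile of each array (641 to 1135 in intensity), taken over 59305 spots that are not controls, after spots marked as outliers were dropped. A probe passed if some culture group had it well above background on both of its arrays (36430 of 55681 probes), and the brightest passing probe stood for each of 25539 genes. Of 41 member probes 40 passed. Another 2 probes that carry a member's accession under another name were left out. Groups were compared with limma 3.58.1 (R 4.3.3), with Benjamini-Hochberg adjustment over all genes and a threshold of 0.05, without and with slide as a block. Deviations of same-numbered arrays had correlations of 0.579 to 0.667 for 6 pairs of groups, and the slide that each number shares is in the file headers. E15 values, 1 array per tissue, were described at a 2-fold limit. The normexp alternative used the median signal, since the culture files lack the mean signal. Alternatives were median and quantile scaling, normexp, the deposited table, dim-probe filter, probe averaging, a trended prior and leaving out each array.

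The fits were tested on simulated data. The members and gene lists were chosen with earlier results of these data known. Named genes were all members, followed in full where called, the 3 largest differences each way per comparison with one sign on both slides, and the anchors Nrp1, Nrp2, Plxna2, Plxna4, Plxnd1, Sema3a, Sema3e, Sema3f, Sema5b and Sema6a. For each tissue comparison the rule took 4 each way. Of the list of partners, those called or the 2 largest each way were named. The choice of lists covers neurons, radial glia and astrocytes, oligodendrocyte lineage, GABAergic lineage, Cajal-Retzius, mesenchyme, endothelium and microglia, forebrain and pallium, hippocampus, and midbrain markers.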

Additional observations from a re-analysis of the deposited data

Results flagged for a closer look

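Of 62 sets of 4 arrays examined, the agonist and inhibitor-only arrays of each of 31 members, 2 held an array far from the other 3 (3.23%), and chance gives about 1 in 20. Among the inhibitor-only arrays, Plxnb3, a receptor of oligodendrocytes and neurons, was at -4.39 on WiBi_0-16 replicate 2 and at -5.10 on each of the other 3. Sema5a was at 1.89 on WiBi_0-16 replicate 2 and at 1.49 to 1.56 on the other 3.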

How the results depend on the processing

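Of 5 counts of called members, 0 in each comparison without a slide term, those of CHIR_11-16 and WiBi_0-16 against WiBi_0-11 and of CHIR_8-16 against CHIR_11-16 stayed at 0 under every alternative run. For CHIR_8-16 against WiBi_0-11 the replicate block alone gave 0. With the block, median scaling gave 1 (Plxnc1), and normexp with quantile normalization and a trended prior gave 2 each (Plxnc1 and Sema3e). Leaving out 1 array gave 0 to 1, with 1 call (Sema3a) without CHIR_8-16 replicate 1 and 1 (Sema3e) without its replicate 2, each with the block. For agonist against inhibitor-only cultures 1 member, Plxnc1, passed with the replicate block, with a trended prior, and with the block under quantile normalization, normexp with quantile normalization, the deposited table, the mean of the passing probes, or dim values set to the floor (a choice made after seeing the data, as were all settings joined to the block other than leaving out arrays). A trended prior with the block gave 3 (Plxnc1, Sema3d and Sema3e). Median scaling and no dim-probe filter gave 0 with the block, as did each left-out array. The block changed no other call.

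The agonist difference of Plxnc1 ran from -0.85 to -0.65 over 33 settings, that of Sema3e from -1.58 to -0.95, that of Sema3a from -1.54 to -0.62 and that of Sema3d from 0.49 to 1.76. Directions turned in 9 values, each on leaving out 1 array. None was of a gene called under any setting in the same comparison. Between WiBi_0-16 and WiBi_0-11, Plxna1 ran from -0.29 to 0.69 over left-out arrays, its lowest values (-0.288 and -0.289) coming without WiBi_0-11 replicate 1 and WiBi_0-16 replicate 2. Over left-out arrays Sema3a ran from -0.139 to 0.53 without the block and from -0.25 to 0.64 with it. It was -0.139 without WiBi_0-11 replicate 2, -0.009 without its replicate 1 with the block, and -0.25 without WiBi_0-16 replicate 2 with the block, and Plxnb3 was -0.33 without WiBi_0-11 replicate 2 with the block. For CHIR_11-16 against WiBi_0-11, Sema3g ran from -0.13 to 1.10, the lowest without WiBi_0-11 replicate 1. Plxnb3 was 0.175 for CHIR_8-16 against CHIR_11-16 without CHIR_8-16 replicate 1 and 0.26 without CHIR_11-16 replicate 2, in a range that reached -1.53. The cause was not tested. Of the tissue counts, that of midbrain ran from 9 to 12 over 4 scalings, the others from 5 to 6. Dim members such as Sema3d and Plxnb3 lie near background, which limits their differences.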
